A study of Mus musculus with 6 samples.

Results

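The small leucine-rich proteoglycans examined here are *Fmod*, *Optc*, *Ogn*, *Dcn*, *Lum*, *Bgn*, *Prelp*, *Omd*, *Aspn* and *Kera*, 10 of the 55421 genes listed in the count table. They were taken by gene symbol, as a named family, and the choice was made with their difference between *Yap* cKO and control retinas already known. Their values across the genotypes are therefore a description. No p-value of a member is given, and whether a member met the call criteria of the fit over all genes describes its size and spread and is no independent test. RNA-seq was performed on 6 retinas of 2-month-old mice. The 3 control retinas (YR612, YR613 and YR615) were Yapfl/fl and carried no Cre, and the 3 *Yap* cKO retinas (YR711, YR713 and YR714) were Yapfl/fl;RaxCreERT2, whose Cre is driven by *Rax*, a gene active in Müller glia and in the non-pigmented epithelium of the ciliary body. Every animal, control or mutant, carried the floxed *Yap* alleles and received 4-hydroxytamoxifen at postnatal days 10 and 14. No group with Cre and without floxed alleles was analysed here, so that the presence of Cre and the deletion of *Yap* cannot be told apart.

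Small leucine-rich proteoglycans are secreted proteins with a core of leucine-rich repeats, and many of them carry chondroitin, dermatan or keratan sulfate chains. They bind fibrillar collagens and set the width and spacing of the fibrils, and several also bind growth factors or their receptors. In the eye they are best known from the cornea and the vitreous. Lumican is needed for the transparency of the cornea. In the vitreous, opticin, made by the non-pigmented ciliary epithelium, coats the collagen fibrils.

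Between 24261799 and 35067068 fragments per retina were assigned to genes, and the 16575 genes that passed a filter on low counts were tested together. *Yap1*, the deleted gene, fell from 9.61 ± 0.189 to 3.90 ± 0.120 TPM (SD, n = 3 retinas per group), which left between 39.2 and 41.5% of the control mean in each *Yap* cKO retina. The count covers all annotated exons of *Yap1* and all cells of the retina, so it does not give the share of cells that lost the gene. TPM is the count per base of exon, scaled to the same total in every retina, and levels of different genes are compared on this scale only. The summed level of 6 rod photoreceptor markers was 25390 to 27780 TPM in control and 25840 to 27350 TPM in the *Yap* cKO retinas, so that rod transcripts marked all 6 samples as retina. By *Xist* and *Ddx3y*, YR615, YR713 and YR714 were female and the other 3 animals male. A gene is said to be called when the adjusted p did not exceed 0.05, the levels differed by 1.5 times or more, and the mean of at least 1 genotype reached 5 TPM.

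The control retina held 4 of the 10 listed members at a mean of more than 5 TPM. *Prelp* was the most abundant, at 52.5 ± 2.44 TPM, followed by *Optc* at 48.0 ± 2.30, *Fmod* at 24.6 ± 2.24 and *Ogn* at 10.6 ± 1.76 TPM. The 3 control retinas of each of these genes lay above all 3 of the gene next in order. For *Prelp* over *Optc* this was by little, with a lowest value of 50.68 against a highest of 50.21 TPM. *Bgn* at 2.35 ± 0.273 TPM and *Aspn* at 1.81 ± 0.409 TPM came next, and their control ranges overlapped. The remaining members were *Dcn* at 0.604, *Omd* at 0.315 TPM, then *Lum* with a count in YR612 and YR615 alone, and *Kera*, which had no count. The ranges of *Dcn* and *Omd* overlapped, as did those of *Lum* and *Kera*, while *Aspn* lay above *Dcn* and *Omd* above *Lum* in every control retina. Both margins were narrow. The lowest *Aspn* value was 1.481 against a highest of 1.48 TPM for *Dcn*. The lowest *Omd* value was 0.260 against a highest of 0.248 TPM for *Lum*, at 4 counts each.

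In *Yap* cKO retinas 3 members, *Fmod*, *Optc* and *Ogn*, were 6.13 to 15.1 times lower than in control retinas, and the most abundant one, *Prelp*, was lower by a much smaller step. Of the 10 members, 6 had enough counts to be fitted. Among these 6, the 3 criteria were met by *Fmod*, *Optc* and *Ogn*, all lower, and by 0 in the other direction. Over all tested genes 0.796% met the criteria, 0.585% as lower and 0.211% as higher, and since the family was chosen on this contrast nothing is read from the count of members. The median log2 fold change of the 6 fitted members was -1.501, against 0.0017 over all genes. That median falls between *Ogn* at -2.62 and *Prelp* at -0.39, with no fitted member near it. In whole retinas, fewer cells of the type that makes a transcript and less transcript per cell cannot be told apart.

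*Fmod* (ENSMUSG00000041559, chr1:134037254-134048277, plus strand) encodes fibromodulin, which binds type I collagen and limits fibril width. Its level was 27.0, 22.6 and 24.3 TPM in control retinas YR612, YR613 and YR615, and 1.85, 2.29 and 0.885 TPM in the *Yap* cKO retinas YR711, YR713 and YR714. Each of the latter lay far below the lowest control retina, and YR714 was the lowest. The log2 fold change was -3.91 ± 0.25 (SE), and 3.60 to 9.32% of the control mean was left in each *Yap* cKO retina.

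*Optc* (ENSMUSG00000010311, chr1:133897199-133907999, minus strand) encodes opticin. Its level was 50.2, 45.6 and 48.2 TPM in the control retinas and 2.86, 8.39 and 2.44 TPM in the *Yap* cKO retinas, in the same order of animals. The groups were far apart, and YR713 kept more than the other *Yap* cKO retinas. On the log2 scale the fold change was -3.41 ± 0.36 over all retinas, and -4.23 ± 0.15 with YR713 left out. The share of the control mean that was left was 5.95% in YR711, 17.5% in YR713 and 5.09% in YR714.

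*Ogn* (ENSMUSG00000021390, chr13:49608046-49624501, plus strand) encodes osteoglycin, also called mimecan. It was at 10.1, 12.5 and 9.08 TPM in control retinas and at 1.28, 2.42 and 1.54 TPM in the *Yap* cKO retinas. The groups did not overlap, and YR713 again kept the most, 22.9% of the control mean against 12.1 and 14.6% in YR711 and YR714. The log2 fold change was -2.62 ± 0.23.

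*Prelp* (ENSMUSG00000041577, chr1:133910304-133921414, minus strand) encodes a proteoglycan whose basic N-terminal stretch binds heparan sulfate. Control retinas held 55.3, 51.5 and 50.7 TPM, and *Yap* cKO retinas 42.9, 47.2 and 35.5 TPM. All 3 *Yap* cKO retinas were below the lowest control retina, as was the case for 9.04% of all tested genes, with a log2 fold change of -0.39 ± 0.11 that met neither the fold criterion nor that on the adjusted p. Between 67.6 and 90.0% of the control mean was left.

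*Bgn* and *Aspn* overlapped between genotypes. *Bgn* (biglycan, ENSMUSG00000031375, chrX:73483602-73495933), which carries chondroitin or dermatan sulfate chains, was at 2.63, 2.32 and 2.09 TPM in control and 2.13, 2.79 and 1.37 TPM in the *Yap* cKO retinas. YR713 was above and YR714 below every control retina, and the log2 fold change of -0.21 ± 0.24 became 0.0025 with YR714 left out. *Aspn* (asporin, ENSMUSG00000021388, chr13:49544443-49567565), a TGF-β-binding member, was at 1.48, 1.67 and 2.27 TPM against 2.20, 2.10 and 2.11 TPM. Its *Yap* cKO retinas lay inside the control range, with a log2 fold change of 0.17 ± 0.22.

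The other 4 members were near the limit of detection and did not pass the filter on low counts. *Dcn* (decorin, ENSMUSG00000019929, chr10:97479609-97518143), the best-known collagen-binding member, had 57, 7 and 7 counts in control retinas and 5, 15 and 5 in *Yap* cKO retinas. Most control counts came from YR612, at 1.48 TPM. The controls YR613 and YR615, at 0.175 and 0.156 TPM, lay inside the *Yap* cKO range of 0.125 to 0.295 TPM. Without the filter the log2 fold change of *Dcn* was -1.67 ± 0.37, which rests on YR612. *Lum* (lumican, ENSMUSG00000036446, chr10:97565128-97572703) had 4, 0 and 1 counts in control and 0 in every *Yap* cKO retina, with the most again in YR612. *Omd* (osteomodulin, ENSMUSG00000048368, chr13:49582462-49592822) had 5, 4 and 6 counts in control and 2, 2 and 0 in *Yap* cKO retinas. *Kera* (keratocan, ENSMUSG00000019932, chr10:97606879-97613692) had 0 counts in all 6 retinas. A count of 0 allows up to 3 counts, or 0.151 to 0.206 TPM of *Kera* depending on the retina, for counting error only.

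**Figure D1:**
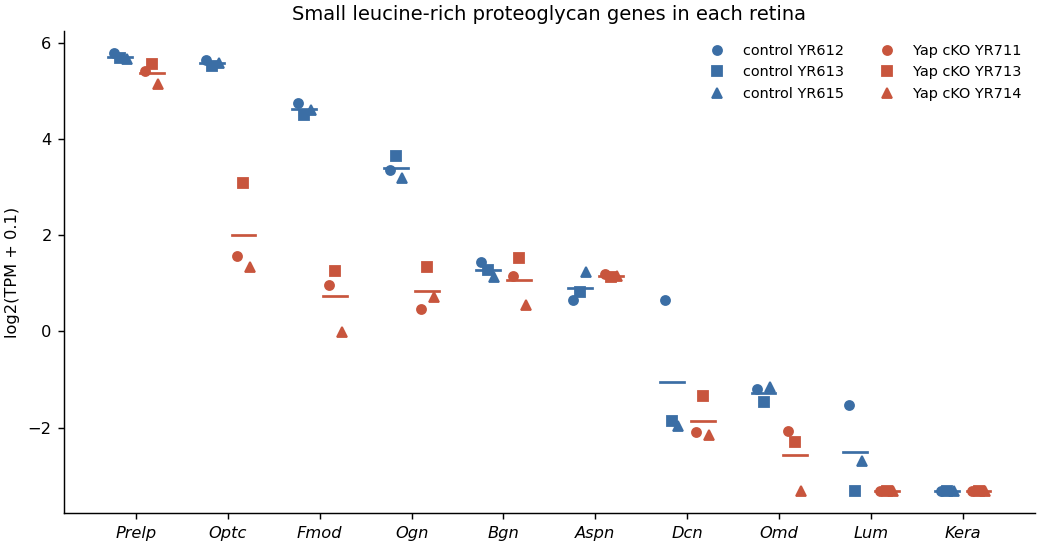
Level of each of the 10 proteoglycan genes as log2(TPM + 0.1), with 1 symbol per retina for control and *Yap* cKO animals and horizontal lines at the mean log2 value of each group. The bottom of the axis holds retinas without a count. *Fmod*, *Optc* and *Ogn* separate widely, *Prelp* narrowly, and *Bgn* and *Aspn* overlap.

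The order of the members differed between genotypes. *Prelp* remained the highest in *Yap* cKO retinas at 41.9 ± 5.95 TPM, and *Optc* came next at 4.56 ± 3.32 TPM. *Aspn* at 2.14 ± 0.0515, *Bgn* at 2.10 ± 0.711, *Ogn* at 1.75 ± 0.596 and *Fmod* at 1.68 ± 0.720 TPM followed with overlapping ranges, so that *Fmod*, in position 3 in the control retinas, came to position 6. *Optc* was above *Aspn* in every *Yap* cKO retina, with its lowest value at 2.44 TPM against a highest of 2.20 TPM for *Aspn*.

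The summed level of the 10 members was 149, 137 and 137 TPM in control retinas and 53.5, 65.6 and 43.9 TPM in the *Yap* cKO retinas, or 140.9 ± 6.85 against 54.3 ± 10.9 TPM. All *Yap* cKO sums were below all control sums. *Prelp* made up 36.9 to 37.7% of the control sum and 72.0 to 80.7% of the *Yap* cKO sum. *Optc* went from 33.4 to 35.1% of the sum in control retinas to 5.35, 12.8 and 5.56% in YR711, YR713 and YR714. *Fmod* went from 16.5 to 18.2% down to 2.02 to 3.50%.

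**Figure D2:**
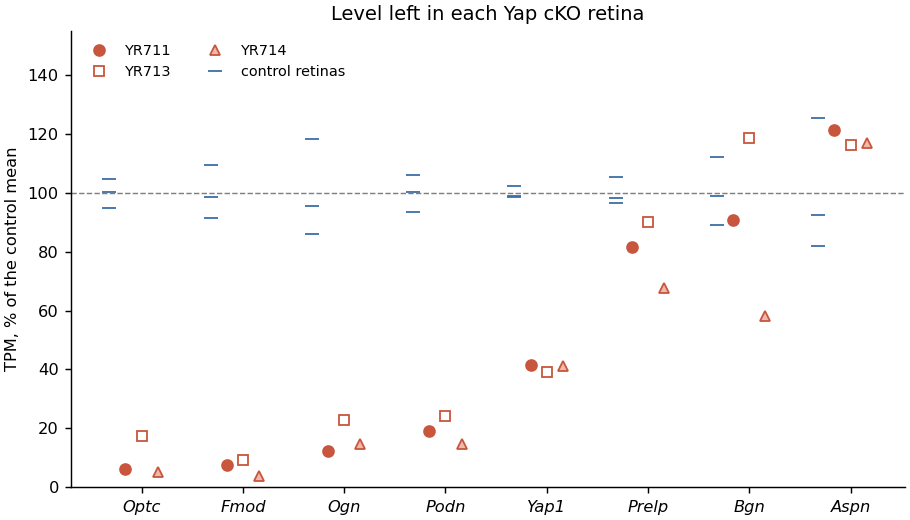
Level in each *Yap* cKO retina as a percentage of the control mean TPM, for the 6 fitted members, *Podn* and the deleted gene *Yap1*, with control retinas as horizontal marks. *Optc* kept 5.09 to 17.5%, *Fmod* 3.60 to 9.32% and *Ogn* 12.1 to 22.9%, all below the 39.2 to 41.5% of *Yap1*, and of the *Yap* cKO retinas YR713 held the most of each of these 3 proteoglycans.

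Of the 8 other genes of the family, 6 were fitted and 0 were called changed by edgeR's quasi-likelihood test. Unadjusted p was under 0.05 for 2 of them, and DESeq2 and edgeR's likelihood ratio test each called 1. *Podn* (podocan, ENSMUSG00000028600, chr4:108014791-108096445), a secreted binder of collagen, was at 2.13, 1.98 and 2.26 TPM in control retinas and 0.403, 0.511 and 0.308 TPM in the *Yap* cKO retinas. The groups were far apart, with a log2 fold change of -2.41 ± 0.23 and an adjusted p of 0.00181 in the edgeR quasi-likelihood fit, and the gene missed the call for its low TPM alone. Its adjusted p was at most 0.015 in all 12 alternatives.

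*Nyx* (nyctalopin, ENSMUSG00000051228, chrX:13466110-13489313) is the member of the wider family that ON bipolar cells use to place the TRPM1 channel at their dendrites. It was at 10.8, 16.8 and 13.9 TPM in control and 24.5, 27.0 and 19.5 TPM in the *Yap* cKO retinas. Every *Yap* cKO retina was above every control retina, but the edgeR adjusted p of 0.0532 for a log2 fold change of 0.72 ± 0.15 missed the threshold. Over the 12 alternatives its adjusted p ranged from 6.79e-08 to 0.242, and 6 of them called it, among them DESeq2 and the fits without YR613 or YR714. *Chadl*, *Ecm2*, *Tsku* and *Podnl1* had log2 fold changes of -0.21, -0.16, 0.06 and 0.06, with edgeR adjusted p of 0.539, 0.747, 0.841 and 0.905. *Epyc* had no count, and *Chad* at most 2 counts in a retina.

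Most members sit beside each other in the genome. On chromosome 1 of GRCm38, *Optc* and *Prelp* lie 2304 bases apart on the minus strand, and *Fmod* follows 115839 bases further on the plus strand, in 151079 bases in all. The small step of *Prelp* thus stood between the large ones of *Optc* and *Fmod*. Of the tested genes next to this cluster, *Zc3h11a* and *Atp2b4* had log2 fold changes of 0.48 and 0.46 on the *Optc* side (edgeR adjusted p 0.242 and 0.136). On the *Fmod* side *Btg2*, an antiproliferative gene, had a log2 fold change of -0.03 (edgeR adjusted p 0.869). The next gene, *Chil1*, which encodes a secreted chitin-binding lectin, fell from 34.0 ± 1.69 to 22.1 ± 3.45 TPM, with a log2 fold change of -0.68 ± 0.11 and an edgeR adjusted p of 0.0258. *Chil1* was not called in the fits without YR612, YR615 or YR711, where its adjusted p reached 0.136.

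On chromosome 13, *Ecm2*, *Aspn*, *Omd* and *Ogn* follow each other on the plus strand within 119692 bases, all inside *Cenpp*, a centromere protein gene on the opposite strand. Of the fitted family genes here *Ogn* was the lower one, and *Aspn* and *Ecm2* overlapped between genotypes. *Omd*, too low to be fitted, had 5, 4 and 6 counts in control and 2, 2 and 0 in *Yap* cKO retinas. *Cenpp* itself had a log2 fold change of -0.61 with an edgeR adjusted p of 0.277. The outer neighbours *Ippk*, *Tes3-ps*, *Nol8* and *Iars* had values of -0.32, 0.35, -0.05 and 0.26, with edgeR adjusted p between 0.136 and 0.817. On chromosome 10, *Dcn*, *Lum*, *Kera* and *Epyc* span 202846 bases and none had enough counts to be fitted. The tested neighbours there (*Gm33843*, *Btg1*, *Atp2b1* and *Gm48768*) had log2 fold changes of 0.61, -0.08, 0.37 and -0.09, none past the threshold (edgeR adjusted p 0.137 to 0.684). Exons of *Prelp*, *Aspn*, *Epyc* and *Chadl* each overlap those of a gene on the opposite strand, which the strand-specific counting kept apart, and no exon of the family overlaps another gene on the same strand.

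**Figure D3:**
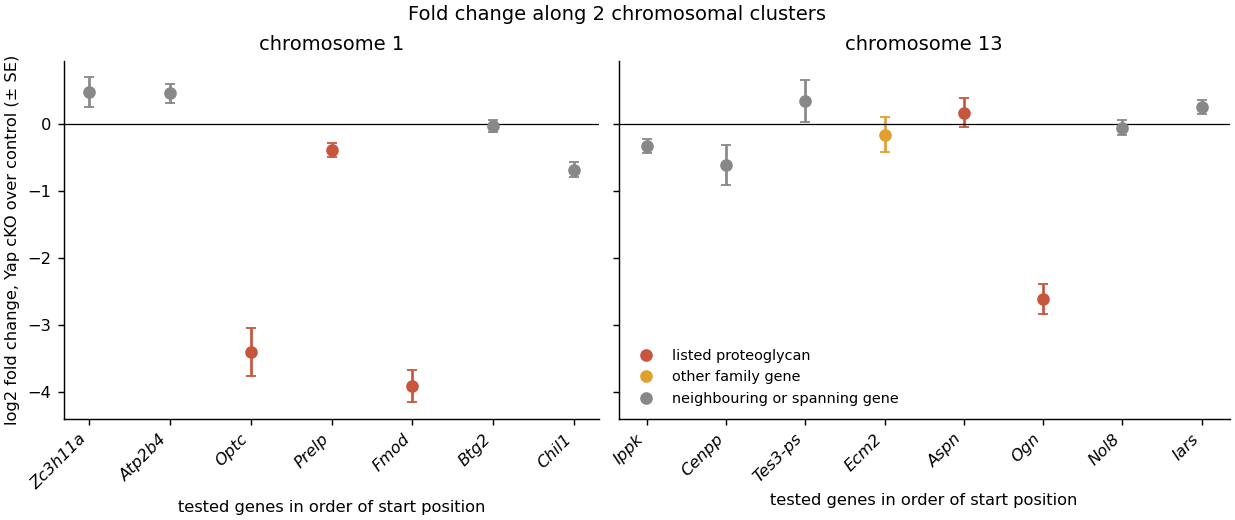
Log2 fold change (*Yap* cKO over control, bars are SE) of the tested genes in gene order along the proteoglycan clusters of chromosomes 1 and 13 and their tested neighbours. *Optc*, *Fmod* and *Ogn* lie at -3.41, -3.91 and -2.62, while *Prelp* at -0.39, *Aspn* at 0.17 and the flanking genes lie between -0.68 and 0.48.

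The sequences before the starts of the 3 chromosome 1 members are shown because *Prelp* lies between *Optc* and *Fmod* with a much smaller difference, and that of *Ogn* because it was the other called member. They are the 250 bases before the RefSeq start, 5′ to 3′ on the gene's strand, at chr1:133908000-133908249 (minus) for *Optc*, chr1:133921402-133921651 (minus) for *Prelp*, chr1:134037004-134037253 (plus) for *Fmod* and chr13:49607765-49608014 (plus) for *Ogn*, in GRCm38.p6. Capitals mark a match to 1 of 3 motifs searched on both strands.
Optc: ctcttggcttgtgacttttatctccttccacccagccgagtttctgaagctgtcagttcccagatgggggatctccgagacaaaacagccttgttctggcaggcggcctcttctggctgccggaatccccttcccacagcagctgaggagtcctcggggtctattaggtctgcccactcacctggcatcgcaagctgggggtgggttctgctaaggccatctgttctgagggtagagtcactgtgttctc
Prelp: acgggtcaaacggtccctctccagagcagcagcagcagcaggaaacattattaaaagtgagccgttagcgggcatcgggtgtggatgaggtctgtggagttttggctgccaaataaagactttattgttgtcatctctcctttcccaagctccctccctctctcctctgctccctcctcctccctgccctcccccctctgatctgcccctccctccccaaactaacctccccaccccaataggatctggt
Fmod: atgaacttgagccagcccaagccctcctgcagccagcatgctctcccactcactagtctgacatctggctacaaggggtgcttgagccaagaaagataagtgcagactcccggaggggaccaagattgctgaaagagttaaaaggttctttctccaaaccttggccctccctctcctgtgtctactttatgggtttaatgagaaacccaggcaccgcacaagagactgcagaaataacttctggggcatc
Ogn: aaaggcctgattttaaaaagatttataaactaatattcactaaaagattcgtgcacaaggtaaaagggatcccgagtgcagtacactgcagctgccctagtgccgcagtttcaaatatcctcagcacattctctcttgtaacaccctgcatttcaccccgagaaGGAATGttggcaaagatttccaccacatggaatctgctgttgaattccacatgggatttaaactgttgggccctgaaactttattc

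The motifs were GGAATG, bound by the TEAD factors through which YAP acts on DNA, TGANTCA, bound by AP-1, and GGATTA, bound by the OTX and CRX homeodomain factors. An entry was found for 8 of the 10 members, and *Dcn* and *Lum* had none. Among the 8, the single match was the TEAD motif of *Ogn*, 86 bases before the start on the plus strand, so that no matches overlapped. Over 32851 windows of the same length the TEAD motif was found in 12.6%, the AP-1 motif in 6.75% and the OTX/CRX motif in 6.25%. *Optc*, *Fmod* and *Prelp* held none of these letters in this window.

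The genes whose pattern over the 6 retinas was most like that of *Optc*, *Fmod* and *Ogn* were found by the root mean square distance between log2 CPM values centred on each gene's mean. The nearest to *Optc* was *Fbln1*, a basement membrane glycoprotein gene, at a distance of 0.255. It stood at 53.5, 36.0 and 41.9 TPM in control and 2.29, 10.7 and 2.01 TPM in the *Yap* cKO retinas, with YR713 again the highest of the latter. *Cldn2*, *Fmod*, *Ltbp2* and *Best2* followed at 0.360, 0.392, 0.442 and 0.512. The nearest to *Fmod* was *Best2*, a channel gene of the non-pigmented ciliary epithelium, at 0.286, ahead of *Optc*, *Npvf*, *Ltbp2* and *Slc26a4* at 0.392 to 0.479. *Ogn* was nearest to *Dsg2*, *Cldn19*, *Klhdc7a*, *Podn* and *Col18a1*, at 0.293 to 0.341. The distances are in log2 units, and since the difference between genotypes dominates them they describe these 6 retinas only.

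Of the genes that build the glycosaminoglycan chains, all 34 on the list were in the table and 29 were fitted. The median log2 fold change was 0.03, and 0 genes were called by edgeR's quasi-likelihood test, with unadjusted p under 0.05 for 7 and 1 call each by DESeq2 and the likelihood ratio test. The smallest adjusted p was that of *Chst2*, a sulfotransferase of keratan sulfate, whose level went from 33.4 ± 1.62 to 25.2 ± 1.51 TPM. Its log2 fold change of -0.46 ± 0.08 passed the edgeR adjusted p at 0.0297 but not the fold criterion, and not the adjusted p either without YR612, YR615, YR711 or YR713 (up to 0.18). *Chst3*, a chondroitin 6-sulfotransferase, had a log2 fold change of 0.59 ± 0.14 and an edgeR adjusted p of 0.0692.

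Among the 17 collagen genes bound by these proteoglycans, 16 were fitted, 1 was called lower and 0 higher, and the median log2 fold change was -0.01. *Col9a2*, a chain of the type IX collagen that decorates the vitreous fibrils, was at 20.6, 15.6 and 18.6 TPM in control and 6.37, 11.1 and 8.94 TPM in the *Yap* cKO retinas, without overlap. Its log2 fold change was -1.11 ± 0.20 with an edgeR adjusted p of 0.0334, and the call was lost without YR612 or without YR615 (adjusted p up to 0.16). A further 3 passed the edgeR adjusted p, all lower, at levels below 5 TPM. They were the fibrillar chains *Col1a2* (log2 fold change -2.16 ± 0.22, adjusted p 0.00236), *Col5a1* (-1.84, adjusted p 0.0104) and *Col11a1* (-1.14, adjusted p 0.0221). *Col5a1* and *Col11a1* no longer passed without YR612, YR615 or YR713.

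Of the 19 genes for proteases and procollagen processing, 14 were fitted, with a median log2 fold change of 0.12. *Pcolce*, which speeds the removal of the C-propeptide from procollagen, fell from 13.5 ± 0.390 to 4.64 ± 1.61 TPM (log2 fold change -1.59 ± 0.23, edgeR adjusted p 0.0119). *Adamts1*, a protease that cuts large proteoglycans, rose from 19.6 ± 1.77 to 31.0 ± 3.35 TPM (0.61 ± 0.11, edgeR adjusted p 0.0318). Leaving out YR612 or YR615 removed both calls. That of *Adamts1* was also lost without YR613, YR713 or YR714, with sex as a covariate and with offsets corrected for gene length.

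Of 25 receptor and growth factor genes that family members bind, all were fitted, 1 was called lower and 0 higher, and the median log2 fold change was -0.07. The called gene was *Ccn2*, encoding a matricellular growth factor and known as a target of YAP, which fell from 55.7 ± 16.9 to 17.2 ± 1.41 TPM (log2 fold change -1.76 ± 0.21, edgeR adjusted p 0.00479) and was called in all 12 alternatives. *Bmp2* passed the edgeR adjusted p at 0.0246 with a log2 fold change of -1.45, but at 3.40 and 1.27 TPM lay below the TPM criterion, and it no longer passed the adjusted p without YR612, YR615 or YR713 (up to 0.131). The TGF-β ligands and receptors of the list were not called. Over all tested genes, an adjusted p of at most 0.05 alone was reached by 0.989% as lower and 0.501% as higher.

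**Figure D4:**
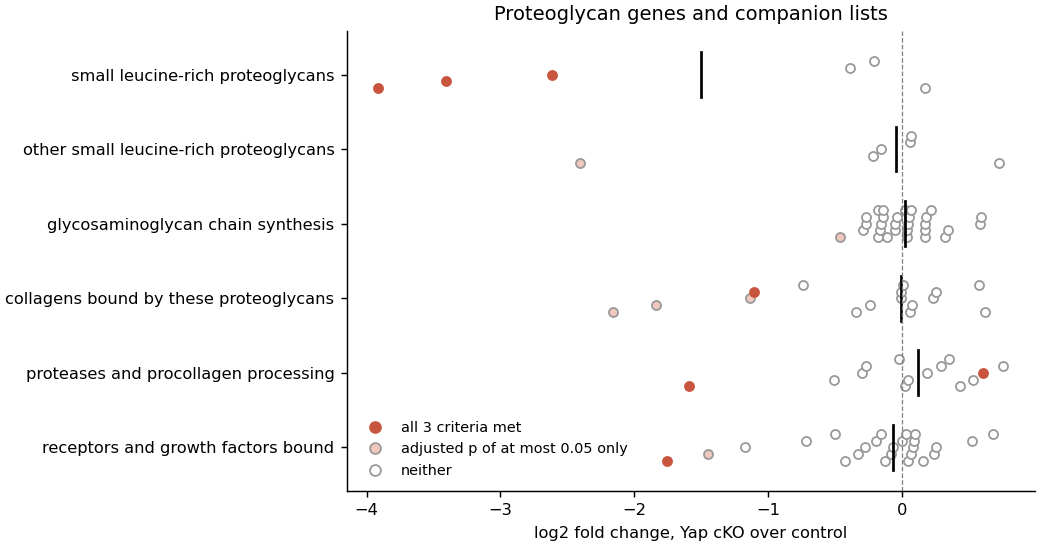
Log2 fold change (*Yap* cKO over control) of each tested gene among the 10 listed proteoglycans and in the companion lists. Each point is 1 gene, and black marks are the list medians. The median of the 6 fitted listed members, chosen with this contrast known, lay at -1.501, between *Ogn* at -2.62 and *Prelp* at -0.39. It was -0.05 for the other genes of the family, and between -0.07 and 0.12 over all the companion lists.

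Some markers of cell types at the margin of the retina or outside it were also lower in the *Yap* cKO retinas, and others of the same lists were not. The 11 fibroblast markers summed to 66.5 to 90.9 TPM in control and 15.1, 30.7 and 19.3 TPM in the *Yap* cKO retinas, and in control retinas most of it came from *Fbln1*. YR612, which held the most *Dcn* and *Lum*, also had the highest sum. *Fbln1* and *Slc6a13* were the 2 of 7 tested markers that were called lower, and these calls were lost without YR612 or YR615, that of *Slc6a13* also without YR713. *Col1a2*, also of this list, passed the adjusted p alone, as given above. The defining genes *Col1a1* and *Pdgfra* had log2 fold changes of 0.08 and -0.05, and *Twist2* was at 0 in all retinas. The value of *Col1a1* has an SE of 0.32 and rests on 11 to 17 counts per retina.

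For the non-pigmented ciliary epithelium, the summed level of 8 markers was 283 to 296 TPM in control and 296, 363 and 332 TPM in the *Yap* cKO retinas, most of it from *Aqp1*, which other ocular cells also express. *Slc26a4*, the anion exchanger pendrin, nevertheless fell from 8.42 to 0.246 TPM (edgeR adjusted p 0.000216) and *Best2* from 4.74 to 0.232 TPM (log2 fold change -4.29, edgeR adjusted p 0.00326). Of the 7 tested markers of this list, 5 were lower and 1 higher in all *Yap* cKO than in all control retinas, set beside 9.04 and 15.2% of all genes. The 7 melanin pigment genes summed to 75.0 to 81.9 TPM in control and 17.9, 50.6 and 29.0 TPM in the *Yap* cKO retinas, with YR713 the highest of the latter, as for *Optc* and *Ogn*. Of these 7 genes, 6 were lower and 0 higher in all *Yap* cKO than in all control retinas. Their median log2 fold change was -1.095, and 5 had an unadjusted p under 0.05 in edgeR. *Pmel* was the 1 called gene among them (log2 fold change -1.89, edgeR adjusted p 0.0347), and not without YR612, YR615 or YR711. DESeq2 called *Pmel* and *Tyrp1*, and the likelihood ratio test *Dct*, *Pmel* and *Tyrp1*. The part of these fibroblast, ciliary and pigment transcripts in the proteoglycan values was not tested.

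Retinal pigment epithelium markers summed to 225 to 257 TPM in control and 67.4, 113 and 254.0 TPM in the *Yap* cKO retinas. The sum of YR714 lay within the control range and those of YR711 and YR713 below it. Of the 7 markers, edgeR called 0, with 1 past the adjusted p. Without YR714 5 were called, and 4 without the filter on low counts. With any other retina left out 0 were called. The part of these pigment epithelium transcripts in the proteoglycan values was not tested. Müller glia markers summed to 7668 to 8018 TPM in control and 6966 to 7413 TPM in the *Yap* cKO retinas, with 0 of 10 called by edgeR or DESeq2 and 5 at an unadjusted p under 0.05 in edgeR. Astrocyte markers summed to 151 to 179 TPM in control and 112, 146 and 132 TPM in the *Yap* cKO retinas, and 1 of 5, *Aldh1l1*, was called (log2 fold change -0.79, edgeR adjusted p 0.00437). The part of these glial differences in the proteoglycan values was not tested either. Pericyte sums overlapped between genotypes, at 106 to 112 TPM and 94.5 to 123 TPM, and so did the endothelial and rod sums. Lens markers reached at most 7.85 TPM and corneal markers at most 2.91 TPM in any retina.

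**Figure D5:**
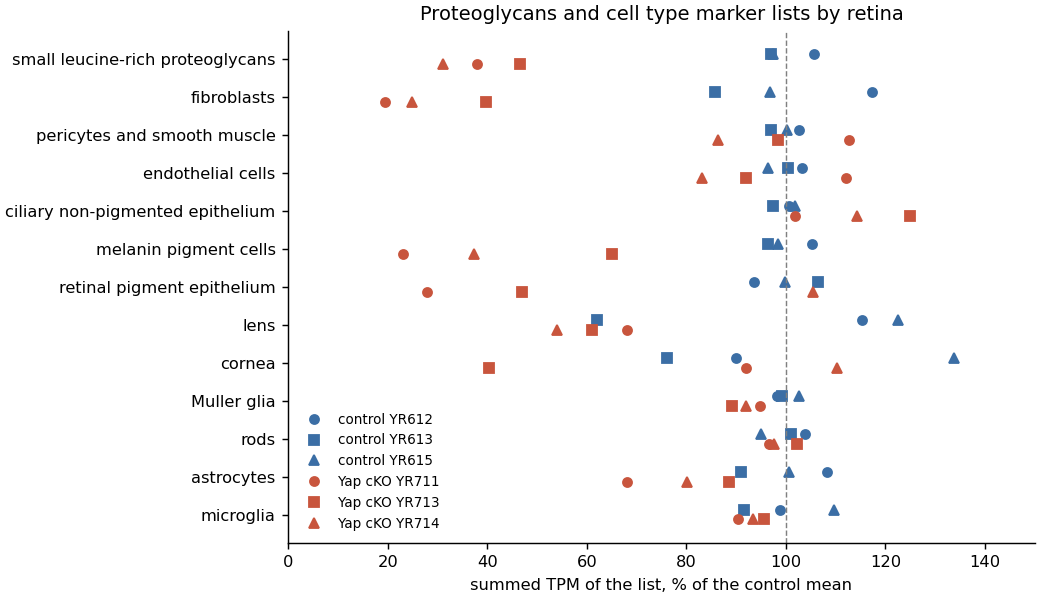
Summed TPM of the listed proteoglycans and of each marker list in each retina as a percentage of the control mean. Listed proteoglycan, fibroblast, melanin pigment, Müller glia and astrocyte sums were below the control range in all 3 *Yap* cKO retinas. The ciliary sum, mostly *Aqp1*, was below the control range in none. The other lists were below it in some *Yap* cKO retinas, such as the retinal pigment epithelium in YR711 and YR713 and endothelial cells in YR713 and YR714, except rods, which stayed within it.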

How the data were processed

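Retinas of 3 control and 3 *Yap* cKO mice were sequenced from stranded polyadenylated RNA. The authors aligned the reads to GRCm38 with STAR 2.7.3a and deposited raw counts per gene made with featureCounts 1.6.2 (strand setting 2, annotation release 98 in the file header), with each gene's exonic length. No normalization had been applied to these counts. Identifiers were matched to symbols for 55154 of 55421 genes. TPM was computed from counts and exonic length.

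With R 4.3.3 and edgeR 4.0.16, genes were filtered by filterByExpr, scaled by TMM and tested by the quasi-likelihood test with adjustment after Benjamini and Hochberg over 16575 genes (common dispersion 0.0126). Every adjusted p attributed to edgeR is from this fit. SE is that of the log2 fold change, derived from the test as its absolute value divided by the square root of the F statistic. Calls followed the limits of the paper's methods (adjusted p 0.05, fold change 1.5, and 5 TPM as the mean of 1 genotype). With these limits the paper lists more differentially expressed genes than the 132 called here. The cause of that difference was not tested. The steps were also run on simulated counts, where all 200 genes given a large change were called, with 6 unchanged genes. The TPM limit was off there and the simulated spread was not specific to each gene. That outcome therefore does not carry over to the calls in the retinas.

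The members and all lists were chosen with earlier results of these data known. The text names all members and other family genes, and from each companion list the called genes (at most 4, or with none called the 2 with the smallest adjusted p), the 2 tested genes on either side of each cluster, and the 5 genes nearest in pattern to *Optc*, *Fmod* and *Ogn* (log2 CPM, prior count 2). Marker genes, and companion genes past the adjusted p alone, were named after their values were seen. *Wisp1*, an older symbol of *Ccn4*, and *Cpamd8* were not matched.

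The alternatives were DESeq2 1.42.0, no filter on low counts, offsets corrected for gene length (loess, span 0.3), the likelihood ratio test, adjusted p alone, sex as a covariate, and each retina left out. Adjusted p alone is no new fit. It keeps the adjusted p of the edgeR quasi-likelihood fit, so any gene called there passes it by construction. Promoter sequences were taken from RefSeq (GRCm38.p6). Replicates were separate animals by the labels. 1 gene of the rod marker list is not reported here.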

Additional observations from a re-analysis of the deposited data

How the results depend on the processing

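The members were chosen with this contrast known, so their counts are a description. *Fmod*, *Optc* and *Ogn* met the criteria in all 12 alternatives, which gives 3 members also without any 1 retina. Of the 12, adjusted p alone is the same edgeR fit with looser limits and could not lose them. *Prelp* met the adjusted p in 3 of the 12 and the fold criterion in none. With 1 retina left out, log2 fold changes ranged from -4.24 to -3.63 for *Fmod*, -4.23 to -3.12 for *Optc*, -2.94 to -2.44 for *Ogn*, -0.48 to -0.30 for *Prelp*, 0.07 to 0.37 for *Aspn* and -0.48 to 0.0025 for *Bgn*, which changed sign without YR714. Over all genes, 132 calls became 263 with DESeq2 (114 higher and 149 lower, against 35 and 97), 369 without the filter (156 and 213), 291 with the likelihood ratio test (123 and 168) and 247 with adjusted p alone (83 and 164). They ranged from 38 without YR615 to 516 without YR613, with 40 without YR612, 68 without YR713 and 448 without YR714. Calls among the other family genes went from 0 to 1 with DESeq2, no filter, the length correction and the likelihood ratio test (*Nyx*) and to 1 with adjusted p alone (*Podn*), and lay at 0 to 1 with 1 retina left out. Chain synthesis genes went from 0 to 1 with DESeq2, no filter and the likelihood ratio test (*Chst3*) and to 1 with adjusted p alone (*Chst2*), with a range of 0 to 2. Collagen calls went from 1 to 2 with DESeq2 and no filter and to 4 with adjusted p alone, with a range of 0 to 2. Protease calls went from 2 to 1 with the length correction and with sex as a covariate, with a range of 0 to 2. Receptor and growth factor calls went from 1 to 3 with DESeq2 and no filter and to 2 with the likelihood ratio test and adjusted p alone, with a range of 1 to 3. The cause of these changes was not tested. *Dcn*, *Lum* and *Omd* passed no filter over all 6 retinas and *Kera* had no count. *Dcn* was fitted in 5 alternatives, all of them with YR612, at log2 fold changes of -2.15 to -1.47, and met the adjusted p in 1, the fit without the filter. No paired analysis was possible because the labels give the animals no number shared between the genotypes.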
